A study of Mus musculus with 12 samples.

Results

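The activator screen of an ORFtag study in mouse embryonic stem (mES) cells is described here from its 4 libraries of 12 in the series, 2 from sorted cells and 2 from unsorted cells of the same screen. All 4 came from 1 clonal, wild-type reporter line with the reporter 7xTetO-pMYLPF-Puro-IRES-GFP in an expression-stable locus on Chr15. In this reporter a minimal promoter from the human gene MYLPF lies behind TetO sites and drives little GFP by itself. The line is diploid and derives from the originally haploid line AN3-12. The cells were transduced with a retroviral cassette that carries a PGK promoter, a selection gene, the DNA-binding domain of the Tet repressor (TetR) as a tag and a splice donor, with its 3 reading-frame variants mixed, and were then selected with G418. Part of the selected cells was kept unsorted, and GFP-positive cells were sorted from the rest, so the labels separate the groups by this sort. Insertion sites in genomic DNA were mapped by inverse PCR and sequencing, so these 4 libraries hold no RNA with which to check the labelled cell type against marker genes. Each unique position at most 200 kb from its assigned exon was counted as 1 insertion, for 20409 genes.

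A transcriptional activator raises the activity of a promoter when it is brought close to it. Many activators are DNA-binding factors with a separate activation domain, and others are coactivators without DNA binding of their own, such as histone acetyltransferases, H3K4 methyltransferases and the Mediator complex. An ORFtag insertion fuses the tag to the exons that lie downstream of it on the same strand, so that the TetR domain can bring the protein to the reporter. A gene whose tagged product raises GFP should therefore collect insertions in sorted cells.

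The splice acceptors below are the sites to which the cassette was assigned most often at 6 of the genes described. They are shown because a fusion spliced to them would start at their exon bases, although splicing was not measured in these libraries. Each holds the last 20 intron bases and the first 10 exon bases, 5′ to 3′ on the strand of the gene, with the acceptor dinucleotide in capitals (reference sequence, GRCm38, the mm10 assembly).
Yap1 exon 2 (chr9:8001698-8001727, minus strand): cattttgctattcctgatAGgccagtactg
Foxj2 exon 2 (chr6:122820683-122820712, plus strand): acaactcctggctgggagAGgctcctcccc
Ep300 exon 2 (chr15:81600888-81600917, plus strand): tcttttctatttgtttttAGattttggttc
Pxn exon 2 (chr5:115544323-115544352, plus strand): tggacaccctctctttgcAGatgccctgct
Med26 exon 2 (chr8:72497588-72497617, minus strand): acatggttctttttcttcAGatccggaaca
D630045J12Rik exon 16 (chr6:38142900-38142929, minus strand): cccccttgcctctcacacAGtctgatcctg
The first exon base was coding in GENCODE vM21 at these sites except Foxj2. At D630045J12Rik the acceptor lies deep in the gene, and 72 of its sorted insertions were assigned to it.

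The first question was which genes held more insertions in GFP-positive cells than in the unsorted cells of the same screen. Of 8000 genes with at least 10 insertions over the 4 libraries, 136 were higher in sorted cells, which is 1.70% of the genes tested (edgeR quasi-likelihood test, adjusted p below 0.05). Depth was uneven, with 17397 and 14705 insertions in the sorted libraries against 175406 and 207613 in the unsorted ones. Values per 10000 were scaled on 534 genes that are well covered in the unsorted libraries of the other screens. The 136 genes held 20.8% and 40.9% of the insertions in sorted replicates 1 and 2, and 1.08% and 1.47% in unsorted replicates 1 and 2. Because the genes were called on these libraries, these shares describe the calls and are no test of them. The median log2 fold change was 5.35 among the 136 genes, with a range from 1.94 to 7.94, and 0.04 over all genes tested. The scaled values of both sorted replicates lay above both unsorted replicates at 132 of the 136 and at 1326 (16.6%) of the 8000 genes tested, and the calls themselves favour such genes.

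No gene was lower in sorted cells by edgeR or by DESeq2, and 75 genes were lower at an unadjusted p below 0.05 in edgeR. Of the genes tested, 1867 had 0 sorted insertions, so the sorted depth limits what could be seen in this direction. The count of lower genes also depended on the scaling, with 43 by TMM over all tested genes and 26 by TMMwsp. Simulated libraries had the same depth, but 1 dispersion of 0.022 for every gene and the same fold in both sorted replicates. In them 2 of 50 genes with a fold of 0.25 were called. With a fold of 16, 49 of 50 were called, with a fold of 4, 20 of 50, and with a fold of 2, 1 of 50. These rates hold for that setting and not for the real libraries, where enrichment differed between the sorted replicates. The number of genes higher in sorted cells fell to 59 without unsorted replicate 1 and to 62 without unsorted replicate 2, and was 107 and 125 without sorted replicate 2 and 1.

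**Figure D1:**
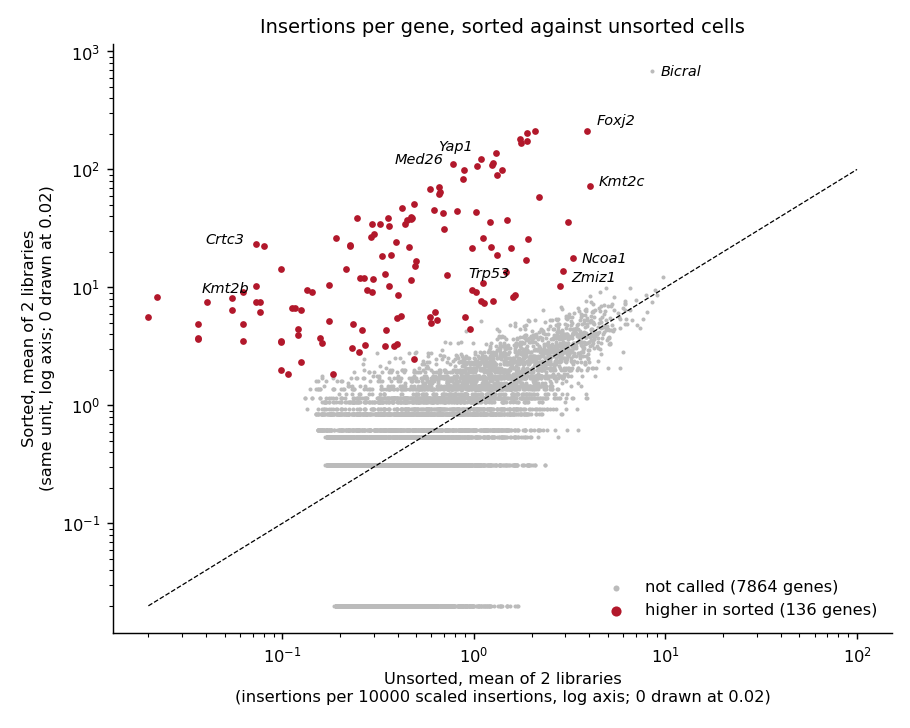
Insertions per 10000 scaled insertions for 8000 genes, as means of 2 unsorted (x axis) and 2 sorted libraries (y axis), both on log axes with 0 drawn at 0.02; the dashed line marks equal values. The 136 genes higher in sorted cells (red) lie above the cloud of genes not called (grey), and Bicral has the highest sorted value but was not called.

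The largest numbers of sorted insertions among the called genes lay at a forkhead factor, an H3K4 methyltransferase and several coactivators. Foxj2, a forkhead transcription factor, had 195 and 284 insertions in sorted replicates 1 and 2, and 71 and 129 in unsorted replicates 1 and 2. Setd1b, a catalytic subunit of an H3K4 methyltransferase complex (COMPASS), had 193 and 284 sorted insertions against 34 and 74 unsorted ones. After scaling, both sorted libraries lay far above both unsorted libraries at each of these genes, and sorted replicate 2 was the higher of the sorted pair. Foxj2 rose by a log2 fold change of 5.76 ± 1.51 (SE, edgeR adjusted p 0.00832). Its values were 3.14 and 4.69 per 10000 in unsorted cells and 121 and 306 in sorted cells. This SE, here and below, was the log2 fold change divided by the square root of the F statistic of the test. Setd1b rose by 6.65 ± 1.56 on the log2 scale (edgeR adjusted p 0.00136). Without unsorted replicate 1 or without unsorted replicate 2, all 10 called genes with the most sorted insertions lost their edgeR call, although the direction was the same. Over all named genes the call was lost at 40 without unsorted replicate 1 and at 36 without unsorted replicate 2, while Crtc3, Faf1, Pygo1 and Kmt2b were called in both cases.

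Ep300, the histone acetyltransferase p300, had 149 and 240 sorted insertions against 39 and 57 unsorted ones, a log2 fold change of 6.51 ± 1.38 (edgeR adjusted p 0.000162). Yap1, the coactivator at the end of the Hippo pathway, had 70 and 189 sorted insertions against 9 and 49 unsorted ones, and a log2 fold change of 6.77 ± 1.09 (edgeR adjusted p 4.84e-08). Pxn encodes paxillin, an adaptor of focal adhesions with LIM domains, and had 82 and 210 sorted insertions against 14 and 55 unsorted ones. Paxillin is best known outside the nucleus, and its log2 fold change of 6.68 ± 1.18 (edgeR adjusted p 1.18e-06) was close to that of Yap1. Med26, a Mediator subunit, had 83 and 158 sorted insertions against 8 and 33 unsorted ones, and rose by 7.09 on the log2 scale. Foxo6, with 71 and 267 sorted insertions, Pprc1, with 161 and 284, Ldb1, with 167 and 239, and Rbbp5, with 110 and 139, completed the 10 called genes with most sorted insertions. These 10 were picked among called genes whose groups did not overlap after scaling.

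**Figure D2:**
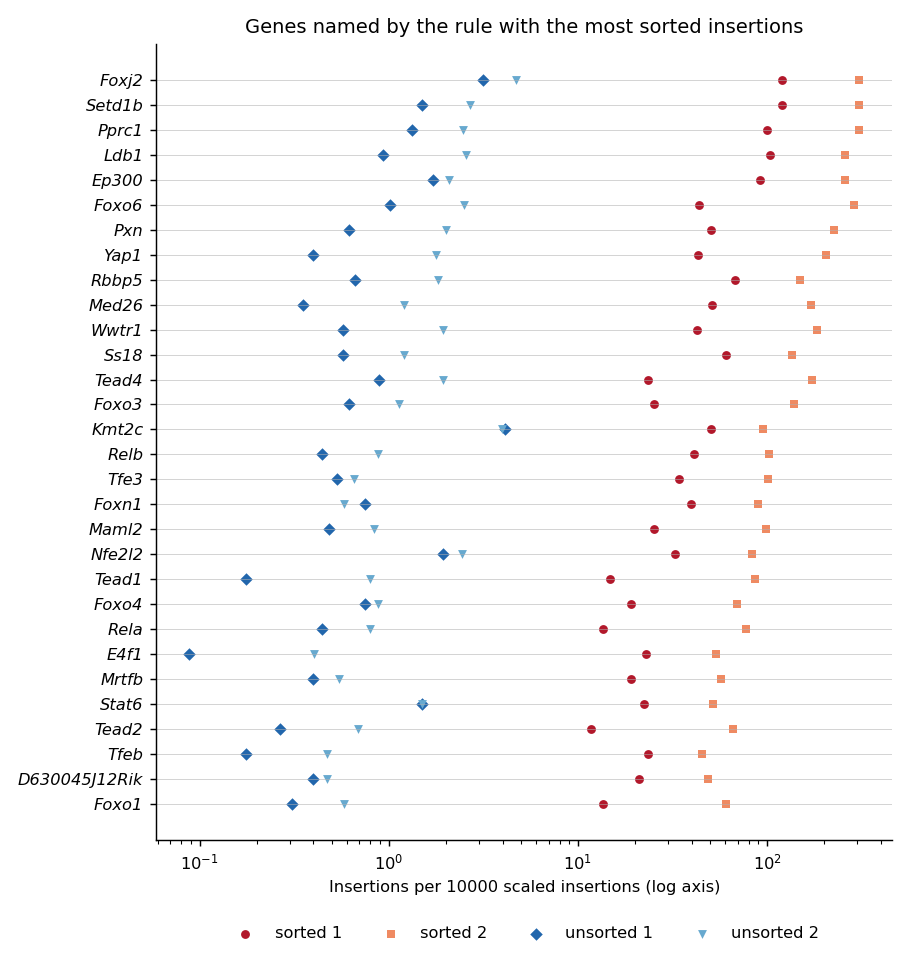
Insertions per 10000 scaled insertions (log axis) in each of the 4 libraries for the 30 genes named by the rule that had the most sorted insertions. At all 30 genes, which were chosen among called genes, both sorted replicates lie right of both unsorted replicates, and sorted replicate 2 lies right of sorted replicate 1.

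Among genes with at least 10 insertions in each sorted library, the largest fold changes were found where unsorted insertions were rare. Crtc3, a coactivator of CREB, had 27 and 28 sorted insertions against 0 and 4 unsorted ones, and a log2 fold change of 7.94 ± 0.49 (edgeR adjusted p 7.21e-54). Faf1, a ubiquitin-binding factor, had 24 and 28 sorted insertions against 2 and 2, and a log2 fold change of 7.86. Med26, E4f1 and Pygo1 followed with 7.09, 7.09 and 6.93. E4f1, a zinc finger protein, had 37 and 50 sorted insertions against 2 and 11, and Pygo1, a reader of methylated H3K4 in Wnt signalling, had 35 and 29 against 2 and 8. These fold changes rest on few unsorted insertions, and those of low genes carry a wide counting error. The SE did not follow this at Crtc3, where it was narrower than at Foxj2 above.

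Catalytic subunits of the COMPASS family were called at each of the 5 members tested, against 1.70% of all genes tested. Of 6 methyltransferases, 5 were tested and 5 rose (Kmt2a, Kmt2b, Kmt2c, Kmt2d and Setd1b), with log2 fold changes from 4.15 to 6.79. Setd1a was not tested, with 0 and 1 sorted insertions and 1 and 1 unsorted ones. Kmt2c had 82 and 88 sorted insertions, but also 93 and 109 unsorted ones, so that its log2 fold change of 4.15 ± 0.72 was the lowest of the 5. Kmt2b had 14 and 11 sorted insertions against 0 and 4, and Kmt2a had only 5 and 4 against 3 and 5, with a log2 fold change of 4.39 ± 0.93 (edgeR adjusted p 0.000162). Kmt2d had 3 and 16 sorted insertions and was not called without sorted replicate 2. Setd1b was not called at a maximum distance of 50 kb nor Kmt2c at 10 kb, and neither was called without unsorted replicate 1 or without unsorted replicate 2. Among the accessory subunits of these complexes, 2 of 12 tested rose, namely Rbbp5 and Ash2l, which together bind and stimulate the catalytic subunits. Rbbp5 had 15 and 50 unsorted insertions and a log2 fold change of 6.42, and Ash2l had 13 and 16 sorted against 17 and 19 unsorted insertions and a log2 fold change of 3.98. Wdr5 and Wdr82 were among the 10 without a call, Wdr5 with 2 and 2 sorted against 45 and 42 unsorted insertions and a log2 fold change of -0.14.

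Acetyltransferase coactivators and Mediator were each higher at some of their subunits. Of the p300, CBP and p160 coactivators, 3 of 5 rose, against 1.70% of all genes tested. Crebbp, the paralogue of Ep300, had 17 and 30 sorted insertions against 40 and 37 unsorted ones and a log2 fold change of 3.62 ± 0.37 (edgeR adjusted p 4.85e-20). Ncoa1, a p160 coactivator of nuclear receptors, had 14 and 25 against 86 and 76, with a log2 fold change of 2.29, and was not called without sorted replicate 2. Ncoa2 and Ncoa3 were not called, with log2 fold changes of 2.18 and 0.41. Ep300, Crebbp and Ncoa1 were not called without unsorted replicate 1 or without unsorted replicate 2.
Of 22 Mediator subunits tested, 5 rose (Med12, Med14, Med15, Med25 and Med26), against 1.70% of all genes tested. Med25, a subunit bound by several activators, had 9 and 68 sorted insertions against 4 and 21, and Med15, a tail subunit that activation domains bind, had 25 and 34 against 22 and 35. Med14, the backbone of the complex, had 20 and 36 against 47 and 48. Med25 was not called in the robust fit. Med14, Med15, Med25 and Med26 were not called without unsorted replicate 1 or without unsorted replicate 2. Med12, of the kinase module, had only 2 and 8 against 4 and 8 and was not called without sorted replicate 2. The median log2 fold change over the 22 subunits was -0.13, or 1.46 with the 5 subunits without sorted insertions at the limit that 3 insertions would give, against 0.04 and 0.69 over all genes tested.

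Further complexes that act at promoters showed the same pattern of single subunits. In SAGA, a coactivator with acetyltransferase and deubiquitinase modules, 3 of 12 tested subunits rose (Atxn7, Atxn7l3 and Tada3). Atxn7l3 had 34 and 33 sorted insertions against 7 and 8, and Atxn7 had 12 and 12 against 8 and 10. Tada3 had 9 and 9 against 26 and 38 and a log2 fold change of 2.47, did not pass the published rule, and was not called with TMM or TMMwsp over all tested genes, without sorted replicate 2, or without unsorted replicate 1 or unsorted replicate 2. In TFIID, the general factor that binds core promoters, 2 of 8 rose, namely Taf3 with 7 and 2 sorted against 4 and 10 unsorted insertions and Taf4b with 4 and 17 against 3 and 6. Taf3 was not called with a replicate block (edgeR adjusted p 0.0853), with TMM or TMMwsp over all tested genes, without sorted replicate 1 or without unsorted replicate 1. The share called among all genes tested was 1.70%. In the BAF chromatin remodelling complexes 2 of 17 rose. Ss18, a BAF subunit that fuses to SSX proteins in synovial sarcoma, had 98 and 126 sorted insertions against 13 and 33 and a log2 fold change of 6.74. It was not called without unsorted replicate 1 or without unsorted replicate 2. Bicra had 16 and 22 against 12 and 13 and a log2 fold change of 4.90.

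The paralogue of Bicra, Bicral, held the most sorted insertions of all genes, 348 and 1073, against 135 and 304 unsorted ones. Its scaled values were 215 and 1157 per 10000 in sorted cells and 5.96 and 11.1 in unsorted cells, so the groups did not overlap but the sorted replicates differed widely. Its log2 fold change of 6.33 ± 2.94 was not called by edgeR (adjusted p 0.799), whereas the adjusted p was 1.61e-07 in edgeR with a replicate block and 8.82e-09 in DESeq2. Its log2 fold change ran from 4.64 without sorted replicate 2 to 7.35 without shared positions. Bicral was called under 8 of 20 alternatives, among them those without sorted replicate 1 (edgeR adjusted p 1.97e-13) and without sorted replicate 2 (8.87e-112), and the adjusted p ran from 1.12e-124 to 0.998. Bicral was singled out after its values were seen. Merging positions within 10 bp left 281 and 701 sorted insertions. Bicral lies on chromosome 17, which held 16.9% of the insertions at genes not called in sorted replicate 2 and 5.15% once Bicral was left out, close to the 5.30% and 5.38% of the unsorted libraries without it.

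Most factors of the YAP pathway that could be tested rose. Of 7 tested members, 5 were higher in sorted cells, against 1.70% of all genes tested: the coactivators Yap1 and Wwtr1 (TAZ) and the DNA-binding partners Tead1, Tead2 and Tead4. Wwtr1 had 69 and 171 sorted insertions against 13 and 53 unsorted ones, and Tead4 had 38 and 161 against 20 and 53. Tead1 had 24 and 80 against 4 and 22, and Tead2 19 and 61 against 6 and 19. The log2 fold changes of the 5 genes lay between 6.08 and 6.77. All of these genes lost their edgeR call without unsorted replicate 1, and again without unsorted replicate 2. Vgll3 and Vgll4, cofactors of the TEAD proteins, had 1 sorted insertion each and log2 fold changes of -1.04 and -0.39, with no call.

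Among DNA-binding families, forkhead, NF-kappaB and STAT genes were called at some members. Of 19 forkhead genes tested, 8 rose, against 1.70% of all genes tested, with Foxo1, Foxo3, Foxo4 and Foxo6 of the FOXO group and Foxj2, Foxj3, Foxn1 and Foxn4. Foxo3 had 41 and 129 sorted insertions against 14 and 31, and Foxn1, the factor of the thymic epithelium, had 64 and 83 against 17 and 16. The other 11 tested forkhead genes were not called, among them Foxm1 and the repressor Foxp1, and the median of the 19 was 0.82. Of 4 NF-kappaB genes tested, 3 rose, and these encode the subunits with an activation domain. Relb had 66 and 95 sorted insertions against 10 and 24, Rela 22 and 72 against 10 and 22, and Rel 5 and 14 against 22 and 30. Rel and Foxn4 were not called without sorted replicate 2. Foxj2, Foxn1, Relb, Rela and the called FOXO genes were not called without unsorted replicate 1 or without unsorted replicate 2. Rel was also not called without unsorted replicate 1. Nfkb1, whose product p50 lacks such a domain, had 1 and 1 sorted insertions and a log2 fold change of 1.03 with no call. Of 4 STAT genes tested, 2 rose: Stat6 with 36 and 48 sorted insertions against 34 and 41, and Stat2 with 4 and 4 against 4 and 4, the latter lost with the replicate block (edgeR adjusted p 0.114). Stat6 was not called without unsorted replicate 1 or without unsorted replicate 2.

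Cofactors of signalling pathways were called in several families. All 5 tested CRTC and myocardin-related genes rose (Crtc2, Crtc3, Mrtfa, Mrtfb and Myocd), with log2 fold changes from 4.92 to 7.94, against 1.70% of all genes tested. Mrtfb, a coactivator of SRF that responds to actin, had 31 and 53 sorted insertions against 9 and 15, while Myocd had 5 and 4 against 0 and 2. The 3 mastermind genes, which encode coactivators of Notch, rose, and no receptor or Rbpj did. Maml2 had 41 and 92 sorted insertions against 11 and 23, Maml1 had 5 and 11 against 1 and 1, and Maml3 had 5 and 9 against 0 and 3. In the Wnt enhanceosome 3 of 7 rose: Ldb1, Pygo1 and Bcl9l. The β-catenin gene Ctnnb1 had 2 and 1 sorted insertions against 38 and 45 and a log2 fold change of -0.49 with no call. Ldb1, Maml2 and Mrtfb were not called without unsorted replicate 1 or without unsorted replicate 2, and Bcl9l was not called without unsorted replicate 2.

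Several further named genes belong to small families, and their counts stand against 1.70% called higher among all genes tested. The lysosome and autophagy regulators Tfe3 and Tfeb had 55 and 94 and 38 and 42 sorted insertions, against 12 and 18 and 4 and 13 unsorted ones, and were the 2 of 12 genes called in their list of MiT/TFE and bHLH-PAS factors. Nfe2l2, the NRF2 factor of the oxidative stress response, had 53 and 77 sorted against 44 and 67 unsorted insertions and a log2 fold change of 4.68. Nfe2l1 had 10 and 12 against 17 and 33, and the other 4 of 6 genes of this family were not called. Elk1, a ternary complex factor, had 12 and 28 against 6 and 13, whereas its relative Elk3 had 4 and 3 against 70 and 79 and a log2 fold change of -0.11. Among adhesion proteins with LIM domains, Pxn and Fhl3 rose of 5 tested. Pprc1, the only tested PGC-1 gene, had 30 and 68 unsorted insertions and a log2 fold change of 6.72. Tfe3, Nfe2l2, Pxn and Pprc1 were not called without unsorted replicate 1 or without unsorted replicate 2. Tfeb and Nfe2l1 were not called without unsorted replicate 1.

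Less well characterised genes were measured with the same design. D630045J12Rik had 34 and 45 sorted insertions against 9 and 13 and a log2 fold change of 6.19 ± 0.41 (edgeR adjusted p 5.21e-48). Zc3h7b, which encodes a protein with CCCH zinc fingers, had 26 and 20 against 30 and 36 and a log2 fold change of 3.78. 1700102P08Rik had 3 and 41 sorted insertions against 2 and 10, so its call rested on sorted replicate 2, and Zfp574 had 6 and 8 against 11 and 21 and a log2 fold change of 3.10. Neither 1700102P08Rik nor Zfp574 was called without sorted replicate 2, and 1700102P08Rik was not called in the robust fit. D630045J12Rik and Zc3h7b were not called without unsorted replicate 1 or without unsorted replicate 2.

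Lists of corepressors, CCR4-NOT and ribosomal proteins held no call. None of 19 tested corepressor genes, 9 genes of KAP1, HP1 and H3K9 methylation, 7 CCR4-NOT genes and 45 cytosolic ribosomal protein genes was called in either direction. Over all genes tested 1.70% were called higher and 0% lower, so the lack of calls is not a result about these lists. Their median log2 fold changes were 0.21, 0.25, -0.20 and 0.01, near the 0.04 of all genes tested. Trim28, the corepressor KAP1, had 7 and 2 sorted insertions against 65 and 84. Ncor1, a subunit of a histone deacetylase complex, had 15 and 6 against 151 and 202. Neither gene differed beyond its error, with log2 fold changes of 0.25 ± 0.56 and 0.22 ± 0.49.

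**Figure D3:**
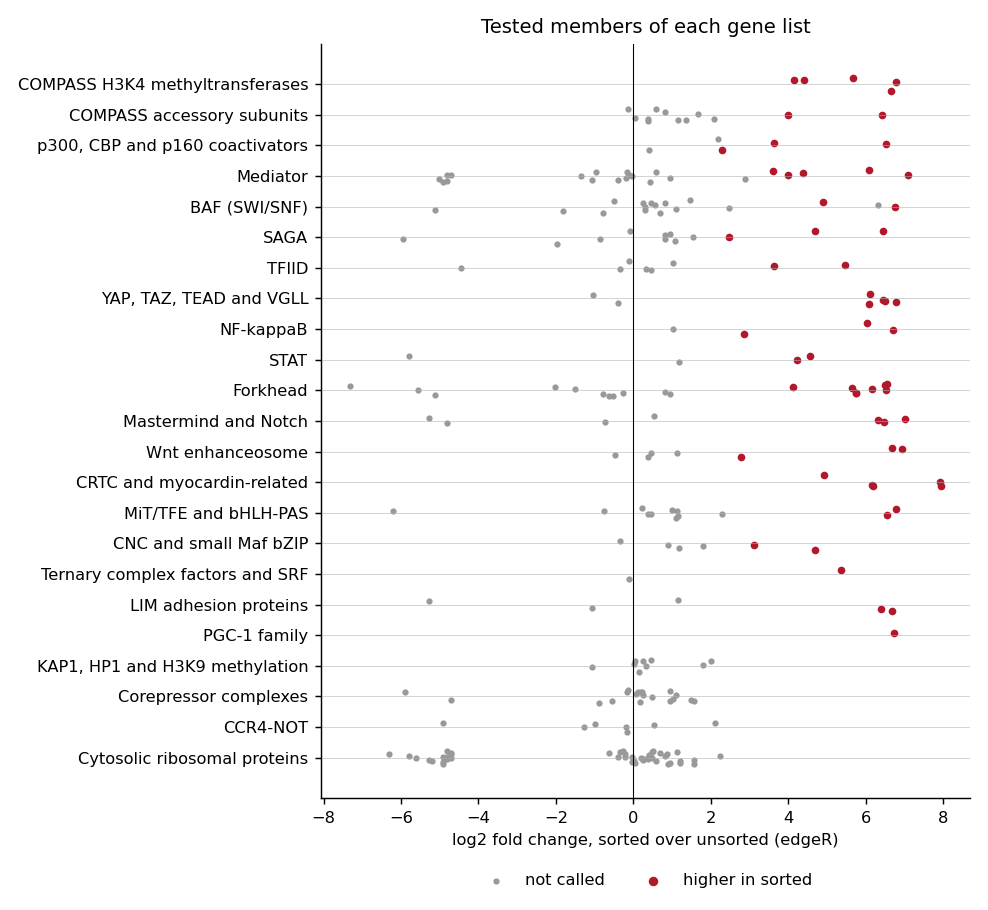
The log2 fold change (sorted over unsorted, edgeR) of each tested member of the 23 gene lists; red points were called higher and grey points were not called. The 33 values below -4 belong to members with 0 sorted insertions and depend on the prior count of the fit, and no red point appears in the last 4 lists.

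The position of insertions within a gene was compared next, because only the exons downstream of the cassette enter the fusion. At the 136 genes, 51.9% and 58.0% of sorted insertions lay inside the annotated gene, against 35.3% and 42.0% of unsorted ones. At all other genes the values were 30.6% and 36.3% in sorted and 28.8% and 28.5% in unsorted libraries. Without Bicral, which was not called, they were 29.1% and 29.6% in sorted and 28.8% and 28.5% in unsorted libraries. Gene bodies came from GENCODE vM21, whereas the authors assigned insertions with vM25, and the effect of the release on these shares was not tested. The median distance to the assigned exon at the 136 genes was 9.75 and 7.44 kb in sorted and 36.8 and 21.8 kb in unsorted cells. The shares and medians at the 136 genes pool all their insertions, so the same gene can weigh differently in sorted and unsorted libraries. Within genes the median distance changed little at some and much at others. It was 54.9 kb in sorted and 52.8 kb in unsorted cells at Foxj2, and 4.92 and 88.7 kb at Nfe2l2. Of 77 called genes with at least 20 sorted and 10 unsorted insertions, the inside share was higher in both sorted than in both unsorted libraries at 39 and lower in both at 5. The same counts over genes not called were not made. These shares are given as a description, without a test.

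Single genes showed wider differences. At Trp53, the tumour suppressor p53, 10 of 17 and 18 of 22 sorted insertions lay inside the gene, against 7 of 39 and 10 of 56 unsorted ones. At Nfe2l2 the inside share was 81.1% and 83.1% in sorted and 11.4% and 28.4% in unsorted libraries, and at Crebbp 58.8% and 70.0% against 7.50% and 13.5%. At Med15 it was 92.0% and 88.2% against 22.7% and 48.6%. Other genes did not share the pattern: at Foxj2 the inside share of sorted insertions was 5.64%, and at Tsx it was 0.422%.

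The exon that followed the insertion also differed. Exon 2 was the most used exon in sorted cells at 100 of the 136 genes and a later exon at 36. Exon 2 took 76.0% and 72.2% of sorted insertions at these genes and 78.1% and 77.6% of unsorted ones. At all other genes it took 82.1% and 82.2% in sorted and 83.7% and 84.0% in unsorted libraries. At 18 of the 77 genes above, the share of the most used exon was at least 20 percentage points higher in sorted than in unsorted cells. That share was lower in sorted cells, by any amount, at 22. At Zmiz1, a coactivator related to the PIAS proteins, exon 23 took 7 of 13 and 15 of 18 sorted insertions, against 3 of 54 and 1 of 94 unsorted ones. Most unsorted insertions at Zmiz1, 30 and 55, were assigned to exon 7, which had 4 and 1 in sorted cells.

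Ncoa1 showed a similar shift over a long gene. Its exon 13 took 4 of 14 and 10 of 25 sorted insertions against 0 of 86 and 2 of 76 unsorted ones, and exon 14 took 11 in sorted replicate 2. Exon 3, with 60 and 45 unsorted insertions, had 4 and 1 sorted ones. At Gon4l, exon 22 took 30 of 45 and 32 of 41 sorted insertions against 4 of 28 and 11 of 33 unsorted ones. At D630045J12Rik exon 16, whose acceptor is printed above, took 85.3% and 95.6% of sorted against 22.2% and 53.8% of unsorted insertions. At Atxn7 exon 3 took 12 of 12 and 11 of 12 sorted insertions and 1 of 8 and 0 of 10 unsorted ones, and at Stra8, a regulator of meiotic entry, exon 3 took 25 of 26 and 61 of 65 against 2 of 9 and 10 of 27. Zmiz1, Gon4l and Stra8, and Trp53 above, were named after their values were seen. The exon was picked on the sorted libraries, which by itself favours a higher sorted share, so no test was made, and at Aff1 and Med15 the share of exon 2 was lower in sorted than in unsorted cells (58.0% against 93.0% and 52.5% against 82.5%).

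**Figure D4:**
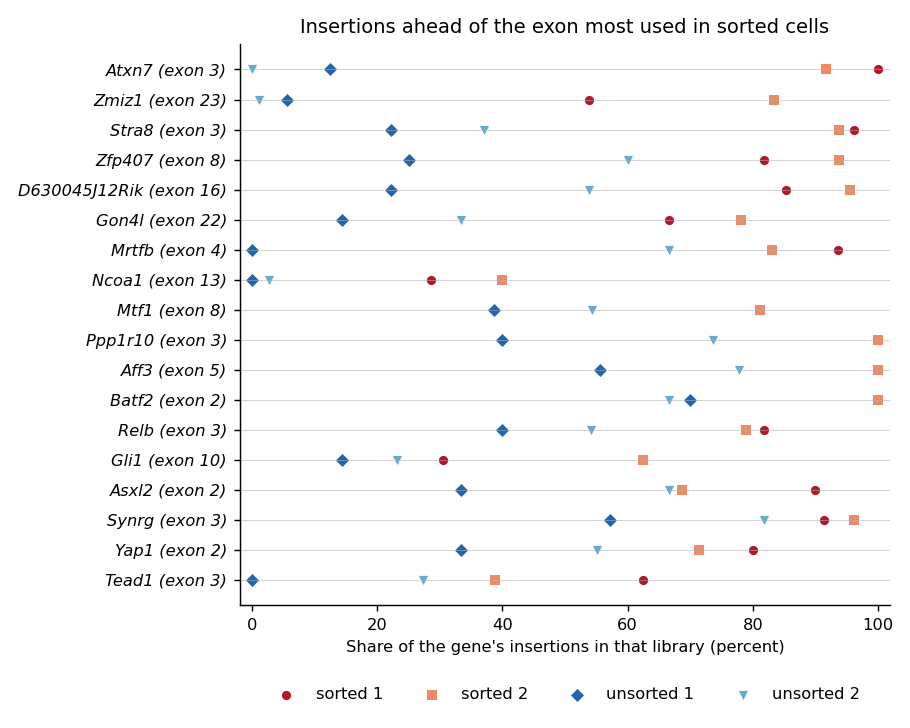
Share of each gene's insertions that were assigned to the exon most used in sorted cells, in percent, for the 18 called genes where this share was at least 20 points higher in sorted cells. Each point is 1 library, and sorted replicate 1 is hidden behind replicate 2 where both have the same value (100%, or 81.1% at Mtf1). At Zmiz1 the sorted libraries were at 53.8% and 83.3% and the unsorted ones at 5.56% and 1.06%.

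The same positions with the strand flipped served as a second assignment (reversed), since a reversed cassette should not tag the gene. By the same edgeR test 96 of 7863 genes (1.22%) were higher and 1 (0.0127%) was lower in sorted cells. The flipped positions are not independent of the sense ones, because an insertion of a called gene is given to the nearest exon on the other strand. Of the 7504 sorted insertions at the 96 genes, 7252 (96.6%) were sense insertions of another called gene. At 90 of the 96 genes more than 50% of the insertions came from there, and at 77 of them at least 90% did. All 479 reversed insertions of Slc2a3 were sense insertions of Foxj2, and all 477 of Rhof were those of Setd1b. With positions on the sense strand of called genes left out, an alternative chosen after seeing the data, 4 genes were higher, of which 3 were among the 96.

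**Figure D5:**
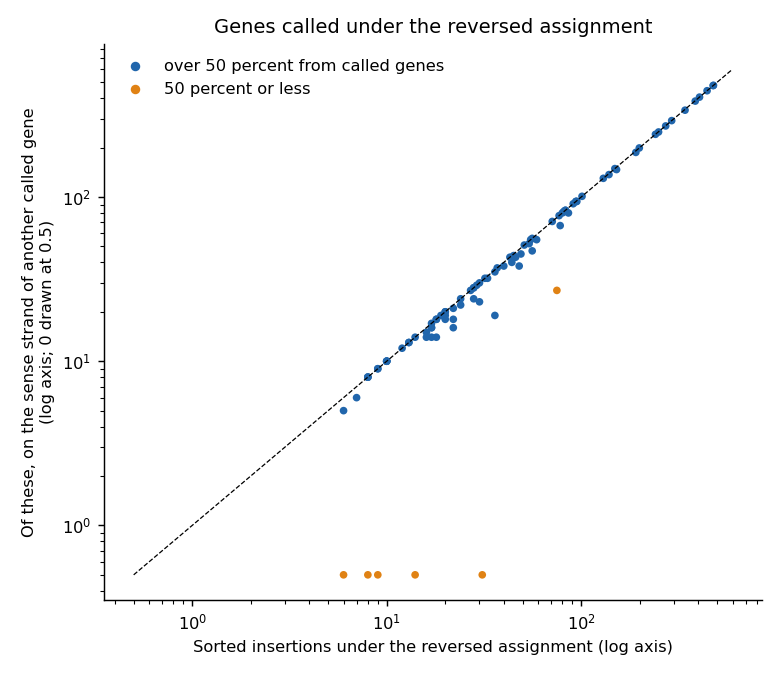
Each point is 1 of the 96 genes called higher under the reversed assignment, with its sorted insertions (x axis) and those that were sense insertions of another called gene (y axis), both on log axes with 0 drawn at 0.5. The dashed line marks equal numbers; 90 genes (blue) had more than 50% of their insertions from called genes and 6 (orange) did not.

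The 4 genes left were Prph2, Usp9x, Rps16 and Gpr137c. Prph2, with 357 and 1073 reversed insertions, lies beside Bicral, which was not among the called genes. Rps16 had 13 and 18 reversed insertions against 18 and 26 unsorted ones, with a log2 fold change of 3.80, and Usp9x had 25 and 23 against 155 and 170. Ldb1, Pprc1, Ss18 and Taf4b were called under both assignments. All 444 reversed sorted insertions of Ldb1 were sense insertions of Pprc1, and all 406 of Pprc1 were sense insertions of Ldb1. Ldb1 and Pprc1 overlap on opposite strands of chromosome 19. Ss18 and Taf4b lie 100 kb apart on opposite strands of chromosome 18.

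Called genes also adjoined each other on the same strand, where an insertion is assigned to only 1 of them. In all, 12 neighbouring pairs of called genes lay within 200 kb, 7 on the same and 5 on opposite strands. The same-strand pairs were Kmt2b and Zbtb32 (0.955 kb apart), Foxo4 and Med12 (13.2 kb), Yap1 and Cfap300 (17.1 kb), Triobp and Gcat (25.0 kb), Bag4 and Ash2l (30.7 kb), Ep300 and Zc3h7b (93.0 kb) and Fhl3 and Mtf1 (93.5 kb). Whether 1 fusion can account for both members of a pair was not tested.

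In the study's methods the unsorted cells are a part of the transduced pool from which the cells were sorted, so the positions that sorted and unsorted libraries share were counted. Of the sorted replicate 2 positions at genes not called, 23.3% were also found in unsorted replicate 2 and 1.76% in unsorted replicate 1. For sorted replicate 1 the shares were 5.44% with the unsorted library of its own number and 2.21% with the other. At called genes, 13.3% of sorted replicate 2 positions were in unsorted replicate 2, which made up 26.2% of that library's positions at these genes. Without all positions found in both a sorted and an unsorted library, 133 genes were higher, of which 132 were among the 136. At genes not called, the positions shared with sorted replicate 2 made up only 0.988% of those in unsorted replicate 2. Leaving shared positions out therefore lowers the unsorted counts of called genes more than those of other genes. This removal by itself favours the calls, so the 132 genes are no test of them. The sorted replicates themselves shared 299 positions at called genes, or 8.25% of those in replicate 1, and 85 or 0.617% at the other genes.

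The published rule was also run on this screen's own unsorted libraries, requiring 3 or more sorted insertions, a log2 odds ratio no lower than 1 and a one-sided Fisher's exact test with its adjusted p under 0.001. It called 124 of 2842 genes (4.36%), of which 119 were among the 136 from edgeR. The other 5 were Bicral, Hoxa2, Lmo4, Pagr1a and Ss18l1. Ss18l1, a paralogue of Ss18, had 4 and 5 sorted and 0 unsorted insertions, at least 59.1-fold higher on the scaled values with 3 insertions over both unsorted libraries taken as the limit. Lmo4 had 2 and 2 sorted and 0 unsorted insertions, at least 26.3-fold higher in the same way.

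With each replicate pair tested alone by this rule, 91 genes were called in replicate 1 and 109 in replicate 2, and 83 in both. The 91 genes from replicate 1 took 45.2% of sorted replicate 2 and 1.24% of unsorted replicate 2, in which they were not chosen. The 109 genes from replicate 2 took 21.6% of sorted replicate 1 and 0.903% of unsorted replicate 1. In the other pair, all 91 and 107 of the 109 genes had a higher share in sorted than in unsorted cells. The same count over all genes was not made, and the sorted replicates shared positions at called genes, as given above. In the sorted libraries of the repressor screen, where the tag was the same but GFP-negative cells were sorted, the 136 genes took 1.49% and 1.14% of insertions, against 1.13% and 1.10% in that screen's own unsorted libraries. Of their 505 insertions in the repressor sort, 256 lay at Zmiz1, Gon4l and Bcl9l, the 3 called genes with the most insertions there. Without these 3 genes the shares were 0.746% and 0.546% in the sorted and 1.05% and 1.03% in the unsorted repressor libraries. The 3 genes were picked on these sorted insertions, which by itself lowers the sorted share that is left, so the shares are no test. Zmiz1 had 69 and 37 insertions in the sorted and 74 and 63 in the unsorted repressor libraries. These are raw counts, from 22266 and 15204 insertions in the sorted and 174276 and 176944 in the unsorted repressor libraries. As a share of its library, Zmiz1 was therefore higher in both sorted than in both unsorted repressor libraries.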

How the data were processed

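Reads were trimmed (Trim Galore 0.6.0) and aligned to mm10 (Bowtie2, SAMtools 1.9) by the authors, who gave each insertion to the nearest exon downstream, first exons excepted, among protein-coding transcripts of GENCODE. Per the file headers, the deposited lists hold 1 insertion per line with its distance in bp, and the deposited table holds counts of insertions summed over libraries (sums rebuilt here were equal for 20407 of 20409 genes in sorted libraries and for 20224 over the 6 unsorted libraries of all screens). Its columns with the authors' odds ratio and p-value were not used. The lists give no reads per insertion, and cells that divided before sorting are not independent events.

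Insertions within 200 kb were counted per gene and library. Genes with at least 10 insertions were fitted with edgeR 4.0.16 (R 4.3.3; quasi-likelihood, two-sided, Benjamini-Hochberg, 2 against 2 libraries), with TMM factors from 534 genes with at least 200 insertions in the 4 unsorted libraries of the other screens. DESeq2 1.42.0 was an alternative. The effective sizes were 16153 and 9271 for sorted and 226353 and 274832 for unsorted libraries. The scripts were tested on simulated data. In the study's methods the screen was run in 2 biological replicates from separate transductions, and the unsorted cells of a replicate are a part of its transduced cells. More positions were shared between libraries of the same number in both pairs, so the numbers were taken to pair the libraries. The main fit left this pairing out, and a fit with the replicate number as a block was an alternative. With the block the edgeR adjusted p was 2.29e-15 at Foxj2 and 4.80e-19 at Setd1b, while Stat2 and Taf3 lost their call. Gene bodies came from GENCODE vM21 (20393 of 20409 genes matched), whereas the authors used vM25.

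The members, the gene lists and the tests were chosen with earlier results of these data known. The named genes are those the study's text and its flag for reversed insertions name, the 10 called genes with the most sorted insertions and no overlap between groups, the 5 with the largest fold change and at least 10 insertions in each sorted library, up to 5 genes called lower, and list members that were called. Other genes were named after their values were seen.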

Additional observations from a re-analysis of the deposited data

How the results depend on the processing

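The number of genes higher in sorted cells was 136 and stayed within 1.5 times of it (97 to 144) with all libraries in the fit. Leaving out each library in turn gave 59 to 125, where a lone library is assumed to vary like the others. With the replicate number as a block, since libraries of the same number share positions, 121 genes were higher, of which 120 were among the 136, and of the named genes Stat2 and Taf3 were no longer called. The number of lower genes depended on scaling. It was 43 with TMM over all tested genes, 26 with TMMwsp and 2 with no factors, and 0 otherwise (0 to 0 when leaving out each library). TMM over all tested genes moved the median log2 fold change of all genes to -0.97 and no factors to -0.68. Under the reversed assignment the 96 genes became 59 at 50 kb, 27 at 10 kb, 4 with positions on the sense strand of called genes left out, and 42 to 83 when leaving out each library. The block gave 86. The study's rule gave 91 to 109 genes from 1 replicate pair, 147 with the pairs as a block (Cochran-Mantel-Haenszel), and 113 to 150 under the other alternatives. No named gene reversed. Without sorted replicate 2, 8 named genes lost the call, and without sorted replicate 1, Taf3 did. Foxj2 lost it with at least 20 insertions, Setd1b at 50 kb, Kmt2c at 10 kb, Med25 and 1700102P08Rik in the robust fit, and Tada3 and Taf3 with TMM and with TMMwsp. The cause was not tested. The depth of the sorted libraries limits the detection of lower genes.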

Other observations

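Genes outside the lists, chosen after their values were seen, were also called higher in sorted cells. They were not tallied against other genes of their kind. Aff3, of the AF4 family, had 38 and 40 sorted insertions against 9 and 9 unsorted ones, Mllt3 had 36 and 43 against 5 and 10, and Aff1 had 34 and 47 against 57 and 101. Aff4 and Mllt1 were called with 7 and 16 against 21 and 36 and with 6 and 3 against 2 and 3. The log2 fold changes of these 5 genes, by edgeR, were 6.42, 6.71, 3.45, 3.00 and 5.02.

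Further called genes were picked in the same way. Tsx, a testis-expressed gene on the X chromosome, had 87 and 150 sorted insertions against 16 and 38, all in sorted cells assigned to exon 2. Stra8 had 26 and 65 against 9 and 27, and Nutm1, a testis gene whose fusions drive NUT carcinoma, had 11 and 20 against 2 and 3. Gli1, the effector of Hedgehog signalling, had 23 and 32 against 7 and 13, and Ddit3, a stress-induced bZIP factor, had 15 and 33 against 2 and 10. Trp53 had 17 and 22 against 39 and 56 and a log2 fold change of 3.04. The metal-responsive factor Mtf1 had 106 and 106 against 31 and 35, and its exon 8 took 81.1% of insertions in each sorted replicate against 38.7% and 54.3% in the unsorted ones.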
